A study of Mus musculus with 42 samples.

Results

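Muc2-mCherry+ goblet cells of the proximal colon were compared between GS4M2 and GWTM2 mice. GS4M2 mice carried Gli1-CreERT2, loxP-flanked Smad4 and the Muc2-mCherry reporter, and GWTM2 mice carried Gli1-CreERT2 and the reporter with intact Smad4. Both groups received tamoxifen, 100 μl of a 20 mg/ml solution per day on 5 days, and cells were collected at day 30. The deletion is driven from the Gli1 gene, so it is made in Gli1+ stromal cells and not in the goblet cells that were sequenced. By the methods of the study the mice were 2 to 4 months old. The comparison holds 4 of the 42 libraries of the series, 2 for each group, chosen by the column names of 1 deposited table, and it is described across all 13705 named genes of that table. Whether a library is 1 mouse or a pool is not in the labels, so p-values measure the spread between libraries. The tamoxifen route is subcutaneous in the labels and intraperitoneal in the methods.

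Goblet cells are the secretory cells that build the mucus of the colon. They fold very large MUC2 polymers in the endoplasmic reticulum, decorate them with O-glycans and sulfate, and release them with other mucus proteins such as Fcgbp, Clca1 and Zg16. Stromal cells below the crypts supply the epithelium with BMP ligands and BMP antagonists, and Smad4 is the common partner of the receptor-activated Smads inside a cell that receives BMP or TGF-β. Absorptive colonocytes, the neighbours of goblet cells at the surface, take up salt, water and short-chain fatty acids.

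Smad4, the targeted gene, was 1904 and 1684 in GWTM2 cells and 1776 and 1845 in GS4M2 cells, and its log2 fold change was 0.02 ± 0.11 (SE, adjusted p = 0.96), so no loss was measured in the goblet cells. In Gli1-tdTomato+ stromal cells sorted from the proximal colon of other mice of the series, Smad4 was 1604 and 1673 in controls and 705 and 835 in Smad4-deleted cells, a log2 fold change of -1.09 ± 0.12 (SE, limma adjusted p = 0.010). Gli1 was 642 and 1597 in the same controls and 1481 and 23.9 in the Smad4-deleted cells, so the second deleted library held little of the gene that drives the recombinase. Smad4 was below both controls in each deleted library, also in the first, in which Gli1 was 1481. Gli1 is not listed in the goblet cell table. Reads on named genes were 19824031 and 15873632 in the GWTM2 libraries and 15647603 and 16606430 in the GS4M2 libraries. Here and below, the first value of each pair belongs to library 1 and the second to library 2, and values are normalized counts. Between 13679 and 13694 genes had at least 1 read in a library, and the 10 genes with the most reads held 7.12% to 7.99% of them. Correlations of log2 values lay between 0.959 and 0.981 for all pairs of libraries. Xist was 20434 in the first GWTM2 library and 6.48 to 13.2 in the others, and Ddx3y, Eif2s3y, Kdm5d and Uty were at 0 in the first GWTM2 library only, so that library comes from female and the other 3 from male tissue. A listing published with the study names these groups the other way round. The deposited names are used here, and under them both GWTM2 libraries match, read for read, the controls listed with GA3M2 cells in 100% of 13685 genes. Under the published listing each fold change would have the opposite sign.

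The label of the cells was checked against marker genes. All 10 goblet markers were present, and their summed level was 538750 and 601985 in GWTM2 and 615329 and 688754 in GS4M2 cells. The sum includes Muc2, the gene after which the reporter is named, and its log2 fold change of 1.00 was the largest. Of the 10 goblet markers 3 lay above 0 and 7 below, with a median log2 fold change of -0.24. Markers of 12 other cell types were summed in the same way. The 12 lymphocyte markers and the 5 red blood cell markers have no row in the table. Between 13679 and 13694 of the 13705 named genes had reads in a library, so genes with few reads may have been left out. A missing row is therefore not evidence that a gene was absent. Of 12 macrophage markers 5 have one, without Adgre1, Csf1r, C1qb or C1qc, and their sum was 203 and 231 in GWTM2 and 228 and 214 in GS4M2 cells. Of 11 B and plasma cell markers only Sdc1, an epithelial gene as well, has a row, at 3067 to 3597. Of 10 neutrophil markers only Ly6g has a row, at 18.0 and 6.48 in GWTM2 cells and 97.7 and 227 in GS4M2 cells. S100a8, S100a9 and Csf3r have none. Of 11 fibroblast markers Pdgfrb and Vim have rows, Col1a1, Col1a2, Col3a1 and Pdgfra have none, and the sum of both was 279 and 254 in GWTM2 and 97.7 and 128 in GS4M2 cells. The 7 smooth muscle markers are represented by Tagln alone, at 13.2 to 30.5, the 7 endothelial markers by 3, with sums of 135 to 172, and the 7 neuronal and glial markers used by Ret alone, at 84.2 to 283. Among epithelial cells, the 7 of 12 tuft markers with a row summed to 421 and 305 in GWTM2 and 415 and 436 in GS4M2 cells. The 12 of 16 enteroendocrine markers summed to 1881 and 1326 in GWTM2 and 507 and 1072 in GS4M2 cells, and the 10 colonocyte markers to 84489.8 and 158620 in GWTM2 and 46817 and 79994 in GS4M2 cells. The colonocyte, enteroendocrine and fibroblast sums were lower in both GS4M2 libraries than in both GWTM2 libraries. Of the colonocyte markers 6 lay below 0 and 4 above, with a median log2 fold change of -0.46, which was 0.25 without the first GS4M2 library. In sorted bulk cells, fewer cells of a type and less RNA per cell cannot be told apart.

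Of 13246 genes with a mean of at least 10 normalized counts, 43 (0.325%) differed between GS4M2 and GWTM2 cells by limma (adjusted p under 0.05, log2 fold change of 1 or more in either direction). Of these, 23 (0.174% of genes tested) were up-regulated and 20 (0.151%) were down-regulated in GS4M2 cells. Fold changes below are on the log2(normalized count + 1) scale, which understates the change of low genes, and adjusted p-values of single genes come from limma unless DESeq2 is named. Each of the 43 genes was also called by edgeR, which called 51 genes (0.385%), and by DESeq2, which called 270 (2.04%), 124 of them higher (0.936%) and 146 lower (1.1%). All 43 kept their direction in every alternative in which they were tested. Where the groups do not overlap, most alternatives cannot reverse a direction, among them left-out libraries, pseudocounts and filters. The kept direction is therefore little evidence of stability. Without adjustment of p, 567 genes (4.28%) passed both thresholds, 274 higher (2.07%) and 293 lower (2.21%). Only 8 of the 43 kept their call whichever library was left out, and these are Lama3, Cldn4, Steap4 and Saa1 among the up-regulated genes and Sult1a1, Insrr, Hsd3b3 and Sgk1 among the down-regulated ones. Without the female GWTM2 library 153 genes were called (96 higher), 40 of them among the 43, and without the other GWTM2 library 39 were called, 21 of them among the 43. Without the first GS4M2 library 17 were called (7 higher), 11 of them among the 43. Without the second GS4M2 library 43 were called, but only 9 were higher and 23 were among the 43. An exact permutation test of 2 against 2 libraries cannot go below p = 0.333, so none is given.

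**Figure D1:**
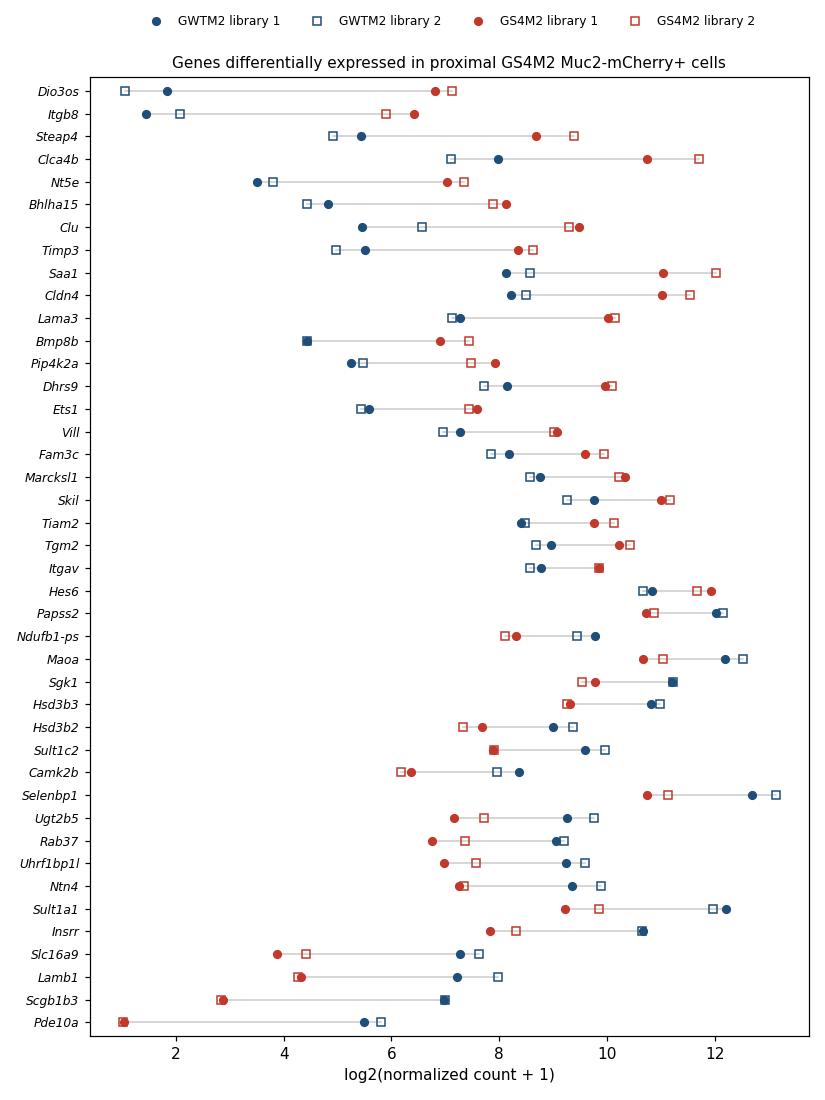
Level of the called genes described here in each library, as log2(normalized count + 1) on the horizontal axis, ordered by fold change from Dio3os to Pde10a. Blue symbols are GWTM2 and red symbols GS4M2 libraries, circles library 1 and open squares library 2; for each gene both red symbols lie to 1 side of both blue ones, and the fold changes run from 5.52 to -4.62 on the log2 scale.

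Genes of the basement membrane and its receptors were called in both directions. Lama3 encodes the α3 chain of the laminin that anchors epithelium to the basement membrane. It was 153 and 138 in GWTM2 cells and 1031 and 1137 in GS4M2 cells, with both GS4M2 values close together and far above both controls, and its log2 fold change was 2.89 ± 0.14 (SE, adjusted p = 0.0084). Itgav and Itgb8 encode the 2 chains of an integrin that binds latent TGF-β and releases the active cytokine. Itgav was 439 and 379 in GWTM2 cells and 918 and 920.1 in GS4M2 cells, and its log2 fold change was 1.17 ± 0.13 (SE, adjusted p = 0.037). Itgb8 was 1.72 and 3.24 in GWTM2 cells and 84.1 and 59.0 in GS4M2 cells, and its log2 fold change was 4.40 ± 0.50 (SE, adjusted p = 0.039), which rests on 5 control reads in all against 138. The ratio of its reads per library size was 29.8, with a 95% interval of 12.5 to 93.4 that covers counting error only. Lamb1, the laminin β1 chain, went the other way. It was 148 and 249 in GWTM2 cells and 18.9 and 18.3 in GS4M2 cells, and its log2 fold change was -3.30 ± 0.33 (SE, adjusted p = 0.031). Of 25 laminins, integrins and related genes tested, 3 were called higher and 1 lower, and the median log2 fold change was -0.04, against -0.0018 over all genes, and 0.11 without the first GS4M2 library. Itgb6, the β chain of another TGF-β-binding integrin, was 196 and 272 in GWTM2 cells and 455 and 588 in GS4M2 cells and was called by DESeq2 only (adjusted p = 6.37e-04), with a limma adjusted p of 0.096. Nid2, a nidogen that links laminin to collagen, was 100.4 and 179 in GWTM2 cells and 39.9 and 7.12 in GS4M2 cells and was called lower by DESeq2 only (adjusted p = 0.0059), with a limma adjusted p of 0.17.

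Cldn4, a claudin of the tight junction between epithelial cells, was 298 and 362 in GWTM2 cells and 2066 and 2991 in GS4M2 cells, and its log2 fold change was 2.92 ± 0.20 (SE, adjusted p = 0.017). Its means differed 7.67-fold and the libraries of each group lay close together. It was the only 1 of 25 tight junction genes that was called. Jam2 was 1.72 and 1.08 in GWTM2 cells and 23.1 and 49.9 in GS4M2 cells (limma adjusted p = 0.083, DESeq2 adjusted p = 0.0025), and Cldn8 was 511 and 372 in GWTM2 cells and 184 and 251 in GS4M2 cells (limma adjusted p = 0.13, DESeq2 adjusted p = 0.0084). DESeq2 called 2 members higher and Cldn8 lower. The median of the group was 0.03, and it was -0.06 without the second GS4M2 library. Outside that list, 3 called genes act on the actin cytoskeleton. Vill, a villin-like protein, was 154 and 123 in GWTM2 cells and 537 and 518 in GS4M2 cells. Marcksl1, which binds actin at the membrane, was 430.0 and 379 in GWTM2 cells and 1297 and 1186 in GS4M2 cells. Tiam2, an activator of Rac, was 339 and 355 in GWTM2 cells and 866 and 1126 in GS4M2 cells. Both GS4M2 values lay above both controls for each, and their log2 fold changes were 1.93, 1.62 and 1.51 (limma adjusted p = 0.02, 0.018 and 0.033).

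Up-regulated genes included epithelial responders to inflammatory cytokines. Steap4, a metalloreductase that interleukin 17 is known to induce, was 42.1 and 29.1 in GWTM2 cells and 409 and 669.7 in GS4M2 cells, and its log2 fold change was 3.86 ± 0.31 (SE, adjusted p = 0.018). Saa1, an acute-phase protein of the surface epithelium, was 277 and 381 in GWTM2 cells and 2115 and 4166 in GS4M2 cells, and its log2 fold change was 3.19 ± 0.32 (SE, adjusted p = 0.031). Both values of the GS4M2 cells were above both controls by a wide margin for each gene. Of 36 tested receptors and known epithelial targets of interleukins 1, 17 and 22, 27 lay above 0 and 9 below, where 49.7% of all genes lay above 0. Their median log2 fold change was 0.41 (0.17 without the second GS4M2 library), 2 members were called higher by limma and 4 by DESeq2, and none was called lower. The groups did not overlap for 16 members that were higher and 8 that were lower, against 25% and 25.2% of all genes. Saa3 was 24.9 and 33.5 in GWTM2 cells and 95.6 and 173 in GS4M2 cells (limma adjusted p = 0.089, DESeq2 adjusted p = 2.71e-04). Il18, a cytokine made by epithelium, was 208 and 125 in GWTM2 cells and 304 and 453 in GS4M2 cells (DESeq2 adjusted p = 0.014). Receptors with lower values in both GS4M2 libraries were not called. Il1r1, the interleukin 1 receptor, was 773 and 900.2 in GWTM2 cells and 573 and 548 in GS4M2 cells (limma adjusted p = 0.13). Il17re, a receptor of interleukin 17C, was 433 and 508 in GWTM2 cells and 255 and 319.6 in GS4M2 cells (limma adjusted p = 0.14). Nos2, Duoxa2 and Duox2, which make nitric oxide and hydrogen peroxide, were higher in both GS4M2 libraries, but the controls differed among themselves, with Nos2 at 98.7 and 11.9 in GWTM2 cells and 208 and 493 in GS4M2 cells. Of 29 NF-κB subunits and feedback genes 23 lay above 0 and 6 below, with a median of 0.16 (0.0058 without the second GS4M2 library) and no limma call. Traf1 was 246 and 258 in GWTM2 cells and 104 and 117 in GS4M2 cells and passed in DESeq2 only (adjusted p = 8.09e-04).

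The promoter windows of both called genes of the cytokine group are shown because each holds letters of a motif of an inflammatory transcription factor. The windows run from 250 bases before to 50 after the RefSeq transcription start on GRCm38.p6. Capitals mark matches on either strand to TTGCNNAA, the C/EBP motif, and to the NF-κB motif, GGGA and CC with 4 bases of any kind between them. The motifs share no match in these windows. The window of Steap4 (chr5:7960222-7960521, plus strand) holds 1 C/EBP match and 2 NF-κB matches, and that of Saa1 (chr7:46742931-46743230, minus strand) holds 1 C/EBP match. The window of Hsd3b3 (chr3:98763079-98763378, minus strand), a down-regulated gene described below, is shown for comparison, with capitals at its single match to CAAAGTCCA, the HNF4 motif.
Steap4: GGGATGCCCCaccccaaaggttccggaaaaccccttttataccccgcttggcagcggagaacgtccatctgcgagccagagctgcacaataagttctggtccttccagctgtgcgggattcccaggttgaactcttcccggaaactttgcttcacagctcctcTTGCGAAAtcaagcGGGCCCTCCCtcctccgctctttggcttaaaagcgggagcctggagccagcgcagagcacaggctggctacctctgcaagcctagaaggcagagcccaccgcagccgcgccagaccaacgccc
Saa1: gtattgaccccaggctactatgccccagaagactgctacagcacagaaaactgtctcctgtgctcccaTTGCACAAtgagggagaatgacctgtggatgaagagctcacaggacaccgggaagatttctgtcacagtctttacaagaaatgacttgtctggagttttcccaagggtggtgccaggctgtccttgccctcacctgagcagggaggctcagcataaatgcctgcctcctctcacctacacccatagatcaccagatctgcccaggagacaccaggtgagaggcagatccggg
Hsd3b3: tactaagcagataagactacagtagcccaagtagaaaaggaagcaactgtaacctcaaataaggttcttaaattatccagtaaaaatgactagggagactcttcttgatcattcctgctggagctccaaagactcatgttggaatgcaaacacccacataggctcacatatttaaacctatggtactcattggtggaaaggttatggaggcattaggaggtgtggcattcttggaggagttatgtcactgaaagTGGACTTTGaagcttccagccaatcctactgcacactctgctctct
Windows were listed for 33 of the 43 called genes and for 10279 genes tested. The C/EBP letters were in 2 of 18 windows of up-regulated genes, in 4 of 15 windows of down-regulated genes and in 7.96% of all. The NF-κB letters were in 6 of 18, 5 of 15 and 26.7%, and the HNF4 letters in none of 18, 1 of 15 and 0.399%. The letters ACCGGAAGT of the ETS motif, searched because Ets1 was called, were in none of the 33 windows and in 2.35% of all. A match is a description of the window and not a bound site.

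Genes of wounded, regenerating or stratified epithelium were mostly higher. Clu, a secreted chaperone that marks regenerating intestinal cells, was 42.9 and 93.9 in GWTM2 cells and 711 and 623 in GS4M2 cells, and its log2 fold change was 3.37 ± 0.36 (SE, adjusted p = 0.036). Of 30 tested genes of this group 24 lay above 0 and 6 below, with a median of 0.53. One was called by limma, and DESeq2 called 5 higher and 1 lower. Anxa8, an annexin, was 124 and 114 in GWTM2 cells and 251 and 279.9 in GS4M2 cells (DESeq2 adjusted p = 8.58e-04). Sprr1a, a cornified envelope protein, was 79.0 and 107 in GWTM2 cells and 198 and 367 in GS4M2 cells (DESeq2 adjusted p = 0.0012). Krt23, a keratin, was the member called lower, with 158 and 232 in GWTM2 cells and 86.2 and 64.1 in GS4M2 cells (DESeq2 adjusted p = 0.0061). These 3 genes did not overlap between the groups but did not pass in limma, where their adjusted p-values were 0.075, 0.12 and 0.11. Sprr2a1, Sprr2a2 and Sprr2a3, which are near-identical copies, were higher in both GS4M2 libraries, and their reads cannot be told apart with certainty. The median of the group was lowest without the second GS4M2 library, at 0.21.

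Within BMP and TGF-β signalling, 1 ligand and 1 target were called. Bmp8b, a BMP ligand, was 20.6 and 20.5 in GWTM2 cells and 118 and 172 in GS4M2 cells, and its log2 fold change was 2.73 ± 0.31 (SE, adjusted p = 0.039). Skil, which represses Smad complexes and is itself induced by TGF-β, was 868 and 609.9 in GWTM2 cells and 2045 and 2314 in GS4M2 cells, and its log2 fold change was 1.58 ± 0.18 (SE, adjusted p = 0.039). Of 28 receptors, Smads and ligands tested 17 lay above 0 and 11 below (median 0.09). Bmp7, another ligand, was 426 and 541 in GWTM2 cells and 199.7 and 117 in GS4M2 cells and passed in DESeq2 only (adjusted p = 2.17e-05). Chrd, a BMP antagonist, was 18.0 and 11.9 in GWTM2 cells and 46.2 and 37.7 in GS4M2 cells (limma adjusted p = 0.18). Bmpr1a, the receptor deleted in the other knockout of the study, had a log2 fold change of -0.34 ± 0.10 (SE, adjusted p = 0.2). Of 17 targets of these pathways 10 lay above 0 and 7 below, and the median of 0.06 was -0.08 without the first GWTM2 library and -0.29 without the second GS4M2 library. Pmepa1, a feedback target of TGF-β, was 522 and 335 in GWTM2 cells and 1185 and 1159 in GS4M2 cells (limma adjusted p = 0.062, DESeq2 adjusted p = 2.01e-07). Tgfbi, a matrix protein that TGF-β induces, was 98.7 and 122 in GWTM2 cells and 39.9 and 46.8 in GS4M2 cells and was called lower by DESeq2 (adjusted p = 0.026, limma adjusted p = 0.11). Id3, a direct BMP target, overlapped between groups at 982 and 1326 in GWTM2 cells and 358 and 1066 in GS4M2 cells. Beside these lists, Tgm2, a transglutaminase that cross-links matrix proteins, was 494 and 411 in GWTM2 cells and 1187 and 1381 in GS4M2 cells. Timp3, an inhibitor of metalloproteinases in the matrix, was 44.6 and 30.2 in GWTM2 cells and 325 and 393 in GS4M2 cells. Both were up-regulated, by log2 fold changes of 1.50 and 3.25 (limma adjusted p = 0.026 and 0.018).

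In the secretory programme 1 regulator was called, Bhlha15, a transcription factor also called Mist1 that enlarges the secretory apparatus of secretory cells. It was 27.5 and 20.5 in GWTM2 cells and 279.6 and 234 in GS4M2 cells, and its log2 fold change was 3.38 ± 0.27 (SE, adjusted p = 0.018). Both GS4M2 values were about the same distance above the controls. Of 32 lineage transcription factors tested it was the only 1 called, while 22 lay above 0 and 10 below (median 0.11). Spdef, which drives goblet cell maturation, was 8151 and 6459 in GWTM2 cells and 10605 and 9777 in GS4M2 cells (limma adjusted p = 0.19). Foxa2, another regulator of goblet cells, was 711 and 490.1 in GWTM2 cells and 1137 and 873 in GS4M2 cells (limma adjusted p = 0.18). Hes6, a relative of the Notch target Hes1, was outside the list and was up-regulated, with 1830 and 1620.2 in GWTM2 cells and 3883 and 3255 in GS4M2 cells, and its log2 fold change was 1.05 ± 0.13 (SE, adjusted p = 0.047). Of 40 endoplasmic reticulum folding and stress genes 31 lay above 0 and 9 below, with a median of 0.14 and no call by limma, edgeR or DESeq2. Asns, an amino acid synthase of the stress response, had the smallest p among them, at 1294 and 1222 in GWTM2 cells and 2595 and 1931 in GS4M2 cells (limma adjusted p = 0.095).

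Muc2, the gel-forming mucin of the colon and the gene after which the sorting reporter is named, was 168657 and 212088 in GWTM2 cells and 401714 and 356310 in GS4M2 cells. Both GS4M2 values exceeded both controls, and the means differed 1.99-fold, but the log2 fold change of 1.00 ± 0.35 (SE) had a limma adjusted p of 0.24. By DESeq2 its adjusted p was 1.20e-07, with a fitted log2 fold change of 0.99, just under the threshold. The other gel-forming mucin tested, Muc6, was 192 and 204 in GWTM2 cells and 221 and 115 in GS4M2 cells. Muc19, too low to be tested, was 3.43 and 3.24 in GWTM2 cells and 22.1 and 9.16 in GS4M2 cells, and Muc5b and Muc5ac have no row. Of 5 membrane mucins tested none was called. Muc20 was 48.1 and 44.3 in GWTM2 cells and 86.2 and 87.5 in GS4M2 cells, higher in both GS4M2 libraries (limma adjusted p = 0.18), while Muc1, Muc3, Muc4 and Muc13 overlapped between the groups, with Muc13 at 25409.7 and 22506 in GWTM2 cells and 23645 and 31676 in GS4M2 cells. The study drew Spdef and 6 mucins, Muc2, Muc3, Muc13, Muc20, Muc19 and Muc5b, from these samples, so that list is not independent evidence of a direction. Of its 5 tested members 4 lay above 0 and 1 below, and none was called by limma. Muc2, Muc20 and Spdef were higher without overlap, as were 25% of all genes.

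Most other goblet cell products had fold changes below 0, unlike Muc2. Of 23 tested 5 lay above 0 and 18 below, with a median of -0.25 (-0.10 without the first GS4M2 library), and none was called by limma. The groups did not overlap for 6 that were lower and 4 that were higher, against 25.2% and 25% of all genes. Klk1, a kallikrein protease of goblet cells, was 63258 and 66107 in GWTM2 cells and 38047 and 36085 in GS4M2 cells and passed the adjusted p of DESeq2 (2.96e-09) with a log2 fold change of -0.80, inside the fold threshold. Retnlb, an antibacterial protein that T helper 2 cytokines induce, was 33056 and 8928 in GWTM2 cells and 109434 and 84768 in GS4M2 cells. As a ratio, the controls differed from each other more than the GS4M2 libraries did. The limma adjusted p of Retnlb was 0.13. Zg16, a lectin that binds bacteria, was 84349 and 49976 in GWTM2 cells and 16349 and 39871 in GS4M2 cells (limma adjusted p = 0.23). Clca1, a mucus-processing protease, was 57274 and 99031 in GWTM2 cells and 20142 and 56306 in GS4M2 cells (limma adjusted p = 0.32). Tff2, a trefoil peptide and the only member that DESeq2 called, was 17.2 and 60.4 in GWTM2 cells and 5.26 and 4.07 in GS4M2 cells (adjusted p = 0.035). Tff3 overlapped between the groups at 20530 and 11152 in GWTM2 cells and 7177 and 14126 in GS4M2 cells. Of 38 enzymes of mucin glycosylation and sulfation 26 lay above 0 and 12 below (median 0.08), and 1 was called. Papss2, which makes the sulfate donor for glycans, was 4176 and 4570.3 in GWTM2 cells and 1685 and 1881 in GS4M2 cells, and its log2 fold change was -1.29 ± 0.11 (SE, adjusted p = 0.018). B3gnt6, which extends core 3 O-glycans, was 2677 and 3068 in GWTM2 cells and 5545 and 4240.0 in GS4M2 cells (DESeq2 adjusted p = 0.0011, limma adjusted p = 0.11). Of 10 genes of crypt-base secretory cells 3 lay above 0 and 7 below (median -0.45). Reg4, a secreted lectin of these cells, was 3602 and 4181 in GWTM2 cells and 1473 and 2509 in GS4M2 cells (limma adjusted p = 0.14). Mptx1, a mucosal pentraxin, was 1070.4 and 796 in GWTM2 cells and 118 and 350.1 in GS4M2 cells (limma adjusted p = 0.13).

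**Figure D2:**
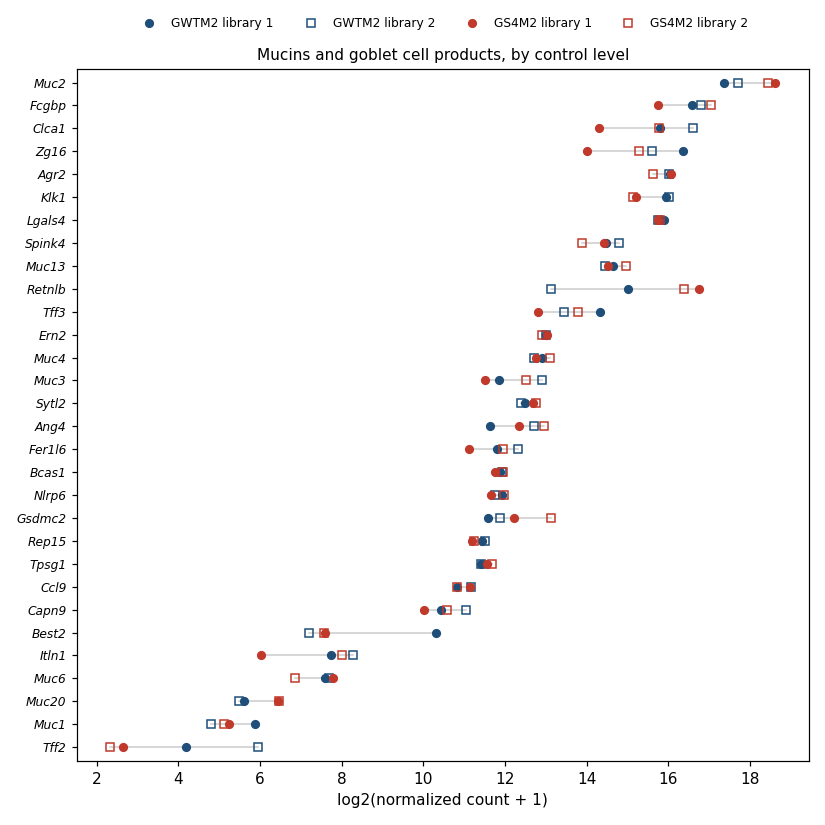
Level of 7 mucins and 23 goblet cell products in each library, as log2(normalized count + 1) on the horizontal axis, ordered by the GWTM2 mean. Muc2 at the top has both GS4M2 libraries (red) to the right of both GWTM2 libraries (blue), at 401714 and 356310 normalized counts against 168657 and 212088. Of the 23 products 6 have both to the left, Klk1 and Tff2 among them, and 4 have both to the right.

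The remaining up-regulated genes have varied roles. Nt5e, the ecto-5′-nucleotidase CD73 that makes extracellular adenosine, was 10.3 and 13.0 in GWTM2 cells and 130.3 and 161 in GS4M2 cells, and its log2 fold change was 3.54 ± 0.32 (SE, adjusted p = 0.021). Clca4b, a chloride channel accessory protein of the surface, was 249.8 and 137 in GWTM2 cells and 1706 and 3347 in GS4M2 cells, and its log2 fold change was 3.68 ± 0.39 (SE, adjusted p = 0.033). Dio3os, a noncoding RNA beside the deiodinase gene Dio3, was 2.58 and 1.08 in GWTM2 cells and 111 and 138 in GS4M2 cells, and its ratio of 242 to 4 reads came to 65.4, with a 95% counting interval of 25.2 to 242. Its fitted log2 fold change was 5.52 ± 0.48 (SE, adjusted p = 0.02), and it overlaps the microRNA gene Mir1247 on the same strand. These 3 genes had control values far below those of GS4M2 cells. Ets1, a transcription factor, was 47.2 and 42.1 in GWTM2 cells and 192 and 173 in GS4M2 cells. Pip4k2a, a kinase of phosphoinositides, was 36.9 and 43.2 in GWTM2 cells and 242 and 177 in GS4M2 cells. Dhrs9, a retinol dehydrogenase, was 282 and 208 in GWTM2 cells and 997 and 1095 in GS4M2 cells. These 3 genes and Fam3c, a secreted protein at 288 and 229 in GWTM2 cells and 769 and 978 in GS4M2 cells, showed no overlap, and their log2 fold changes were 2.01, 2.35, 2.10 and 1.75 (limma adjusted p = 0.039, 0.038, 0.018 and 0.033).

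Genes of ion and fluid transport were mostly lower in GS4M2 cells. Of 58 tested 12 lay above 0 and 46 below, with a median log2 fold change of -0.40. The groups did not overlap for 34 that were lower and 8 that were higher, against 25.2% and 25% of all genes. By limma 3 were called lower and 1 higher, Clca4b, and by DESeq2 12 were lower and 3 higher. Over all genes tested limma called 0.151% lower and 0.174% higher, and DESeq2 1.1% lower and 0.936% higher. Slc16a9, a monocarboxylate and carnitine carrier, was 153 and 195 in GWTM2 cells and 13.7 and 20.4 in GS4M2 cells, and its log2 fold change was -3.30 ± 0.33 (SE, adjusted p = 0.029). Sgk1, a kinase that keeps sodium channels at the surface, was 2347 and 2406 in GWTM2 cells and 876 and 737 in GS4M2 cells, and its log2 fold change was -1.56 ± 0.12 (SE, adjusted p = 0.018). Sgk1 and Lama3 were the only genes called in each of the 14 alternatives. Sult1c2, a sulfotransferase that the study counts among transport genes, was 767 and 1002 in GWTM2 cells and 235 and 237 in GS4M2 cells, and its log2 fold change was -1.89 ± 0.16 (SE, adjusted p = 0.02). Other members passed in DESeq2 alone. Fxyd3, a regulator of the sodium pump, was 792 and 533 in GWTM2 cells and 249 and 186 in GS4M2 cells. Slc5a8, a carrier of short-chain fatty acids, was 2539 and 2231 in GWTM2 cells and 792 and 1274 in GS4M2 cells. Car2, a carbonic anhydrase, was 7610.1 and 11569 in GWTM2 cells and 4418 and 4972 in GS4M2 cells. Both GS4M2 values lay below both controls for each (DESeq2 adjusted p = 9.97e-07, 3.40e-05 and 9.51e-05, limma adjusted p = 0.07, 0.091 and 0.11). Slc9a3, the apical sodium-proton exchanger, was 1421 and 1470.2 in GWTM2 cells and 144 and 461 in GS4M2 cells, lower in both GS4M2 libraries (limma adjusted p = 0.11). Slc16a3, an exporter of lactate, was higher at 57.5 and 24.8 in GWTM2 cells and 164 and 209 in GS4M2 cells (DESeq2 adjusted p = 1.19e-04). The 7 transport genes that the study drew on these samples were all lower without overlap, with a median of -1.89, and that list is not independent evidence of its direction. Slc16a9 and Sult1c2 were called by limma. Slco3a1, an organic anion carrier, was 42.1 and 69.1 in GWTM2 cells and 9.46 and 7.12 in GS4M2 cells. Slc16a10, which carries aromatic amino acids, was 186 and 273 in GWTM2 cells and 106 and 109.9 in GS4M2 cells. Chp2, a cofactor of sodium-proton exchangers, was 379 and 729 in GWTM2 cells and 157 and 286 in GS4M2 cells, and Slc26a3, the chloride-bicarbonate exchanger, was 1204 and 2409 in GWTM2 cells and 279.6 and 639 in GS4M2 cells. Limma adjusted p-values of these 4 were 0.089, 0.13, 0.19 and 0.13.

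Most surface colonocyte genes also had fold changes below 0. Of 33 tested 8 lay above 0 and 25 below, with a median of -0.38, and 3 were called lower and 1, Saa1, higher. The median was 0.07 without the first GS4M2 library. Sult1a1, a phenol sulfotransferase, was 4731 and 3985 in GWTM2 cells and 599 and 918 in GS4M2 cells, and its log2 fold change was -2.55 ± 0.21 (SE, adjusted p = 0.018). Selenbp1, which oxidizes methanethiol, was 6640.2 and 8976 in GWTM2 cells and 1721 and 2243 in GS4M2 cells, and its log2 fold change was -1.97 ± 0.19 (SE, adjusted p = 0.026). Hsd3b3, a 3β-hydroxysteroid dehydrogenase, was 1797 and 2015 in GWTM2 cells and 638 and 614 in GS4M2 cells, and its log2 fold change was -1.60 ± 0.11 (SE, adjusted p = 0.017). Its neighbour and near-copy Hsd3b2 was 508 and 664 in GWTM2 cells and 205 and 159.8 in GS4M2 cells (limma adjusted p = 0.047), and reads may be split between both. Car1, the carbonic anhydrase most typical of colonocytes, was 36763 and 86318 in GWTM2 cells and 8706 and 18514 in GS4M2 cells, and the second GWTM2 library stood above the others (limma adjusted p = 0.13). Aqp8, a water channel of the same cells, was 143 and 239.6 in GWTM2 cells and 315 and 589 in GS4M2 cells, higher in both GS4M2 libraries (DESeq2 adjusted p = 0.021). The summed level of the 10 colonocyte markers was lower in both GS4M2 libraries, as given above, and its part in the transport and colonocyte results was not tested. Other down-regulated enzymes were Ugt2b5, a glucuronosyltransferase, at 613 and 860.3 in GWTM2 cells and 142 and 211 in GS4M2 cells, and Maoa, which degrades serotonin, at 4685 and 5909 in GWTM2 cells and 1619 and 2095 in GS4M2 cells (limma adjusted p = 0.047 and 0.038).

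The other down-regulated genes follow. Pde10a, a cyclic nucleotide phosphodiesterase, was 43.8 and 55.1 in GWTM2 cells and 1.05 and 1.02 in GS4M2 cells, which is 102 reads against 2, a ratio of 47.2 with a 95% counting interval of 12.7 to 395 (limma adjusted p = 0.042). Scgb1b3, a secretoglobin, was 125 and 126 in GWTM2 cells and 6.31 and 6.11 in GS4M2 cells, and its log2 fold change was -4.14 ± 0.34 (SE, adjusted p = 0.018). Its reads came to 263 in GWTM2 and 12 in GS4M2 cells. Insrr, a receptor that senses alkaline pH, was 1619 and 1607 in GWTM2 cells and 227 and 314 in GS4M2 cells, and its log2 fold change was -2.59 ± 0.17 (SE, adjusted p = 0.017). For all 3 genes the controls lay close together. Ntn4, a netrin that binds laminin, was 648 and 951 in GWTM2 cells and 152 and 162 in GS4M2 cells. Rab37, a small GTPase of exocytosis, was 532 and 587 in GWTM2 cells and 107 and 163 in GS4M2 cells. Camk2b, a calcium-dependent kinase, was 328 and 247 in GWTM2 cells and 80.9 and 71.2 in GS4M2 cells, and Uhrf1bp1l was 601 and 769.6 in GWTM2 cells and 125 and 188 in GS4M2 cells. For each of these 4 genes both GS4M2 values lay below both controls, with log2 fold changes of -2.31, -2.07, -1.89 and -2.14 (limma adjusted p = 0.02, 0.038, 0.042 and 0.038). Ndufb1-ps was 876 and 694 in GWTM2 cells and 318 and 276 in GS4M2 cells (limma adjusted p = 0.042). Of the 43 called genes, 12 have an exon that overlaps a gene on the opposite strand in GENCODE M21, among them Sult1a1 with Sgf29, Timp3 with Syn3, Ndufb1-ps with Cpsf2, Bmp8b with Ppie and Hsd3b2 and Hsd3b3 with Zfp697. Whether the counting used strand is not given in the sources used here, so reads of such pairs cannot be told apart. On GRCm38, which the study calls mm10, Steap4 lies at chr5:7960457-7982213, Cldn4 at chr5:134945119-134946934, Bhlha15 at chr5:144190286-144194441, Sgk1 at chr10:21882184-21999903 and Sult1a1 at chr7:126672865-126676432.

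Groups of genes that most cells use had medians slightly below 0 without a limma call. Of 78 nuclear subunits of the respiratory chain and ATP synthase 6 lay above 0 and 72 below, with a median of -0.31 where all genes had -0.0018, and 61 were lower without overlap, where 25.2% of all genes were. Ndufa11, a subunit of complex I, was 449.8 and 577 in GWTM2 cells and 219.7 and 191 in GS4M2 cells (limma adjusted p = 0.06), and DESeq2 called 5 members lower. Of 37 proteasome subunits 2 lay above 0 and 35 below (median -0.29), with Psmd3 at 3493 and 3453 in GWTM2 cells and 2468 and 2303 in GS4M2 cells (limma adjusted p = 0.089). Of 80 cytosolic ribosomal proteins 20 lay above 0 and 60 below (median -0.11), with Rpl39 at 3330.4 and 5491 in GWTM2 cells and 1980.2 and 1921 in GS4M2 cells, which DESeq2 called (adjusted p = 4.49e-05). Of 65 G2 and mitosis genes 3 lay above 0 and 62 below (median -0.31), and 47 were lower without overlap, against the same 25.2%. Nusap1, a spindle protein, was 459 and 486 in GWTM2 cells and 307 and 274 in GS4M2 cells (limma adjusted p = 0.11). Of 49 S phase genes 5 lay above 0 and 44 below (median -0.18), with the replication factor Gins2 an exception at 216 and 164 in GWTM2 cells and 331 and 326 in GS4M2 cells (limma adjusted p = 0.14). The members of such a group move together within a library, so they are not separate observations. The medians of these 5 groups kept their sign in all alternatives.

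**Figure D3:**
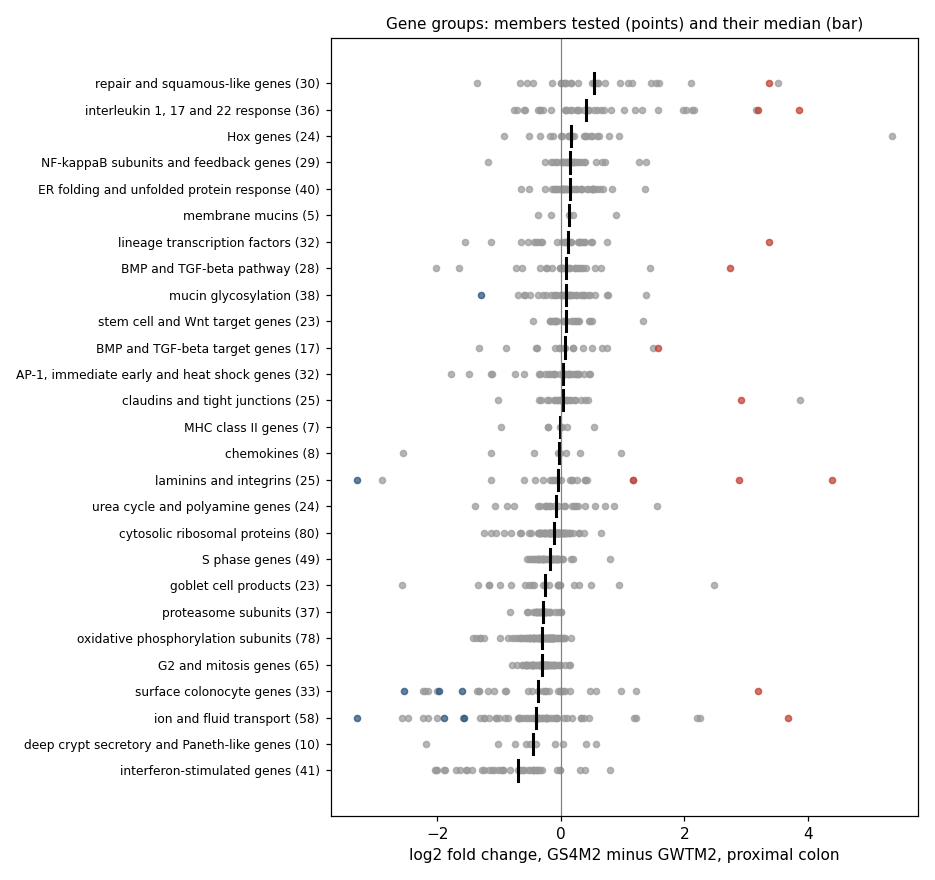
Log2 fold change (GS4M2 minus GWTM2, proximal colon) of the tested members of 27 gene groups, 1 point a gene, with the number tested in brackets and a black bar at the median. Red and blue points are genes called higher and lower; medians run from 0.53 in repair and squamous-like genes to -0.69 in interferon-stimulated genes.

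Values of immune genes varied between the libraries of a group. Of 41 interferon-stimulated genes 3 lay above 0 and 38 below, with a median of -0.69. The groups overlapped for 26 of them. They did not overlap for 14 that were lower and 1 that was higher, against 25.2% and 25% of all genes. Relative to the GWTM2 mean, the median of all 41 was -1.56 in the first GS4M2 library and -0.17 in the second. It was -0.020 and 0.020 in the GWTM2 libraries, and the median fold change kept its sign in all alternatives. In the distal colon these medians were -2.07 and -0.90 in GS4M2 and 0.16 and -0.16 in GWTM2 cells. Irgm1, an interferon-induced GTPase, was 1369.9 and 1111 in GWTM2 cells and 732 and 899.7 in GS4M2 cells (limma adjusted p = 0.16), and Igtp, another one, was 573 and 194 in GWTM2 cells and 45.2 and 146 in GS4M2 cells (limma adjusted p = 0.22). Usp18 was called by DESeq2 alone, at 81.5 and 136 in GWTM2 cells and 28.4 and 44.8 in GS4M2 cells. MHC class II genes split the libraries across the groups. Cd74, the invariant chain, was 4152 and 58.3 in GWTM2 cells and 193 and 2672 in GS4M2 cells. H2-Ab1, a chain of the complex, was 1240.3 and 79.9 in GWTM2 cells and 35.7 and 708 in GS4M2 cells. The first GWTM2 and the second GS4M2 library were high and the other 2 were low. All 7 tested MHC class II genes overlapped, and their summed level was 7444 and 252 in GWTM2 and 407 and 4540.3 in GS4M2 cells. Of 8 chemokines tested none was called by limma, and Cxcl9, an interferon-induced chemokine, was 136 and 34.5 in GWTM2 cells and 11.6 and 10.2 in GS4M2 cells (DESeq2 adjusted p = 0.0037). Of 32 immediate early and heat shock genes 17 lay above 0 and 15 below, and 7 were lower and none higher without overlap, a share no larger than the 25.2% of all genes lower without overlap. DESeq2 called 2 of them lower. The chaperone gene Hspa1a was 241 and 171 in GWTM2 cells and 55.7 and 61.1 in GS4M2 cells, and its near-identical copy Hspa1b, with which it may share reads, was 943 and 733 in GWTM2 cells and 349 and 248 in GS4M2 cells (limma adjusted p = 0.061 and 0.061). The median of the group was 0.04, and -0.45 without the second GS4M2 library.

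**Figure D4:**
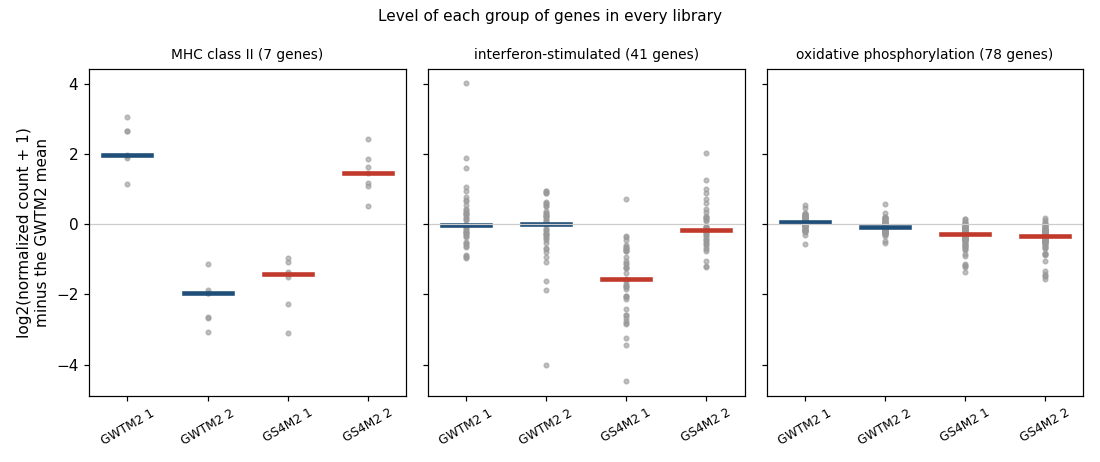
Levels of MHC class II genes, interferon-stimulated genes and oxidative phosphorylation subunits in each library, as log2(normalized count + 1) minus the mean of the GWTM2 libraries on the vertical axis, 1 grey point a gene and a bar at the median. The MHC class II median is 1.97 and -1.97 in the GWTM2 and -1.43 and 1.47 in the GS4M2 libraries, so those groups overlap, while the oxidative phosphorylation medians of -0.28 and -0.34 in GS4M2 cells lie below those of both controls.

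Of 252 solute carriers tested 110 lay above 0 and 142 below (median -0.06), and Slc16a9 was the only 1 called by limma. DESeq2 called 4 higher and 10 lower. Slc25a34, a mitochondrial carrier, was 584 and 866 in GWTM2 cells and 251 and 318 in GS4M2 cells (limma adjusted p = 0.083, DESeq2 adjusted p = 3.02e-05), lower in both GS4M2 libraries. Slc7a11, the cystine importer, was 84.1 and 61.5 in GWTM2 cells and 368 and 246 in GS4M2 cells (limma adjusted p = 0.06, DESeq2 adjusted p = 1.73e-07), and Slc40a1, the iron exporter ferroportin, was 754 and 906 in GWTM2 cells and 1456 and 2053 in GS4M2 cells (DESeq2 adjusted p = 5.27e-05). Slc7a11 and Slc40a1 were higher in both GS4M2 libraries. Of 24 urea cycle and polyamine genes 11 lay above 0 and 13 below (median -0.08). Otc, which makes citrulline, was 458 and 576 in GWTM2 cells and 177 and 217 in GS4M2 cells (limma adjusted p = 0.06). Arg1, which cleaves arginine, was 93.6 and 91.8 in GWTM2 cells and 339 and 223 in GS4M2 cells (limma adjusted p = 0.078). Of 23 stem cell and Wnt target genes 14 lay above 0 and 9 below (median 0.08), none was called by limma, and Sp5, a Wnt target, was 37.8 and 38.9 in GWTM2 cells and 102 and 93.6 in GS4M2 cells (DESeq2 adjusted p = 0.028). Of 24 Hox genes 19 lay above 0 and 5 below (median 0.17). Hoxd9 was 4.29 and 0 in GWTM2 cells and 76.7 and 114 in GS4M2 cells, with a limma adjusted p of 0.077 and a DESeq2 adjusted p of 7.56e-08.

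The same genes were followed in Muc2-mCherry+ cells of the distal colon, which have their own GWTM2 libraries. The labels do not say whether proximal and distal libraries come from the same mice. Agreement between the segments is therefore not known to be independent. Of the 21 up-regulated genes with a distal value 20 were above 0 there, and of the 19 down-regulated ones 18 were below 0, where 50.3% of all genes tested in the distal colon were above 0. No gene was called in the distal comparison of 13078 genes by limma. The difference between the proximal and the distal change was tested in 12760 genes, and by limma none passed an adjusted p of 0.05, the smallest being 0.187, while 1111 genes (8.71%) had an unadjusted p under 0.05. Scgb1b3 had the smallest p. It was 65.2 and 106 in distal GWTM2 cells and 101 and 143 in distal GS4M2 cells, and its proximal minus distal difference was -4.67 ± 0.45 (SE, limma adjusted p = 0.19). Clu was 25.1 and 24.9 in distal GWTM2 cells and 22.8 and 26.7 in distal GS4M2 cells, close together in all 4, and its difference was 3.39 ± 0.52 (SE, limma adjusted p = 0.35). Lamb1 had a distal log2 fold change of -0.10, and its difference was -3.19 ± 0.51 (SE, limma adjusted p = 0.36). Bhlha15 and Sgk1, in contrast, had distal log2 fold changes of 2.36 and -1.47 beside 3.38 and -1.56 in the proximal colon. Insrr was lower in both segments, at 273 and 377 in distal GWTM2 cells and 6.64 and 21.1 in distal GS4M2 cells.

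**Figure D5:**
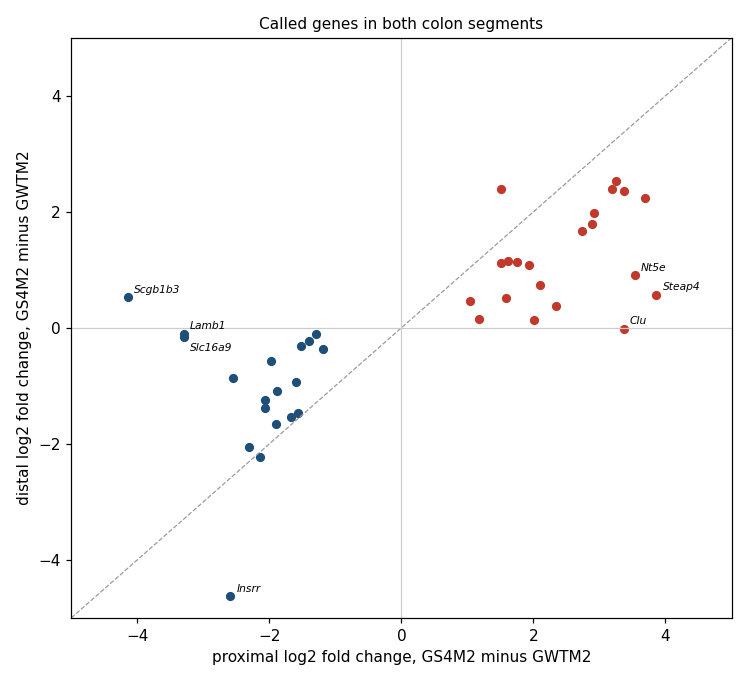
Log2 fold change of 40 called genes in the proximal colon (horizontal axis) and in the distal colon (vertical axis), GS4M2 minus GWTM2, with the line of equal change dashed. Red and blue points are genes called higher and lower in the proximal colon; Clu lies at 3.37 and -0.02 and Scgb1b3 at -4.14 and 0.53, far from the line, while Uhrf1bp1l lies at -2.14 and -2.23.

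In proximal GA3M2 cells, in which Bmpr1a is deleted in the Gli1+ stromal cells instead, values are given side by side only, since the same 2 GWTM2 libraries serve as controls. Lama3 was 1037 and 2588 in the GA3M2 libraries, a log2 fold change of 3.40, Cldn4 was 2526 and 6016 (3.48) and Steap4 was 255 and 648 (3.42). Slc16a9 was 17.1 and 25.8 (-3.06). All 23 up-regulated genes were above 0 in GA3M2 cells, and 17 of the 20 down-regulated ones were below 0. The shared controls favour such agreement, so it is not independent evidence. For some genes GA3M2 cells were nearer to their controls or beyond them. Bhlha15 was 30.2 and 25.8, a log2 fold change of 0.14 beside 3.38 in GS4M2 cells. Sgk1 was 2785 and 9498 (1.03 beside -1.56), and Muc2, which was not among the called genes, was 18753 and 14042 (-3.63 beside 1.00). Differences between both knockouts were not tested.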

How the data were processed

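Muc2-mCherry+ cells were profiled by RNA sequencing in 2 GS4M2 and 2 GWTM2 libraries of the proximal colon. Per the labels and methods, the authors aligned reads with STAR 2.5.3 to mm10, kept unique alignments and normalized gene counts with DESeq2 1.28.1. The deposited values are a normalized signal, gene counts divided by 1 size factor per library. The counter, annotation and strand setting are not given in the sources used here. Dividing each column by its step of 0.858 to 1.08 gave whole reads for 100% of values (within 0.1 of a whole number). Rows without a gene name, 4 in number, held 22.7% to 28.2% of each column's sum and were left out. Names changed to dates, 17, were kept but not named.

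Values were tested as log2(value + 1) with limma 3.58.1 (trend) in R 4.3.3, in genes with a mean of at least 10, with calls at an adjusted p (Benjamini-Hochberg) below 0.05 and a log2 fold change of 1 or more either way. edgeR 4.0.16 (quasi-likelihood, TMM) and DESeq2 1.42.0 were run on the recovered reads as alternatives. Other alternatives were no filter, a minimum mean of 50, pseudocounts of 0.1 and 10, upper-quartile rescaling, unadjusted p, a replicate block, a spread shared with the distal libraries and each library left out. The segment difference was a limma interaction over 8 libraries, treated as separate with no pairing of proximal and distal libraries. The fit with the shared spread treated them in the same way. Fits were tested on simulated data. Named are all called genes with a proper name (1 is not reported here), the members of each list called or, up to 4, with the smallest p, of which a choice is given, and all tested mucins and drawn transport genes. Uncalled genes beyond this rule (Id3, Aqp8, Nos2, Duoxa2, Duox2, Car2, Igtp, Il18, Slc16a3, Slc40a1, Slc9a3, Tff3 and the Sprr2a copies) were picked after their values were seen. Members and lists were chosen with earlier results of these data known. Positions are from GENCODE M21 on GRCm38, and promoter sequences from RefSeq on GRCm38.p6. Motifs were chosen after the called genes were known.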

Additional observations from a re-analysis of the deposited data

Results flagged for a closer look

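For 7 gene groups the median lay on one side of 0 in both proximal GS4M2 libraries and on the other side in both distal GS4M2 libraries, each time beyond both GWTM2 libraries of the segment. The groups were looked for among lists of at least 10 genes after their values had been seen, and the difference between segments was not tested for a group. Some members were tested in the proximal colon only, so the genes are not the same in both: 24 and 15 Hox genes, 32 and 29 lineage transcription factors, 28 and 27 genes of the BMP and TGF-β pathway and 24 and 23 urea cycle and polyamine genes entered in the proximal and the distal colon. Over genes tested in both segments, an alternative chosen after seeing the data, the proximal medians of these 4 groups were 0.14, 0.12, 0.11 and -0.053. For mucin glycosylation the median log2 fold changes were 0.080 (proximal) and -0.17 (distal). Lineage transcription factors had 0.11 and -0.15, the BMP and TGF-β pathway 0.087 and -0.095, and Hox genes 0.17 (0.46 without the first GWTM2 library) and -0.18. In the other direction, S phase genes had -0.18 and 0.27, cytosolic ribosomal proteins -0.11 and 0.15, and urea cycle and polyamine genes -0.079 and 0.18. All 7 shifts are small beside the threshold of 1 used for single genes, and no single gene passed the limma test of the segment difference.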

How the results depend on the processing

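The count of 43 called genes was 9 with the spread shared with the distal libraries, 270 with DESeq2, 567 at an unadjusted p, and 17 to 153 when single libraries were left out. With the replicate number as a block it was 260. Over all genes, same-numbered libraries did not deviate together (r = -0.0022 over both pairs). Such a correlation cannot exclude shared deviations of some genes. Surface colonocyte medians against the GWTM2 mean were lower in library 1 of both groups, at -0.29 and 0.29 in GWTM2 and -0.79 and 0.07 in GS4M2 cells. MHC class II medians ran in opposite directions, at 1.97 and -1.97 in GWTM2 and -1.43 and 1.47 in GS4M2 cells. A batch shared by number was not tested. Pseudocounts, filters, upper-quartile rescaling and edgeR gave 31 to 62 called genes. All 43 genes kept their direction in the alternatives that tested them, which most alternatives cannot change where the groups do not overlap. The test of the segment difference gave no gene in any alternative run, and its DESeq2 form was not run. Among other named genes, Cd74 (positive by limma) was -0.56 by edgeR and -0.56 by DESeq2, and Tagln was 0.0033 with a pseudocount of 10, 0.048 by edgeR and 0.043 by DESeq2. Log2 fold changes of uncalled genes that changed sign when a library was left out ranged for Avil from -0.35 to 1.27, for C1qa from -1.10 to 0.32, for Cd74 from -2.53 to 3.60, for H2-Aa from -2.87 to 2.45, for H2-Ab1 from -3.11 to 1.16, for H2-DMa from -1.35 to 0.93, for Lyve1 from -0.017 to 1.22, for Ms4a7 from -0.57 to 0.037, for Muc1 from -0.69 to 0.37, for Muc13 from -0.016 to 0.41, for Muc3 from -0.89 to 0.14, for Muc4 from -0.055 to 0.31, for Muc6 from -0.78 to 0.16, for Smad4 from -0.073 to 0.10, for Tagln from -0.58 to 0.56, for Trpm5 from -0.19 to 0.54, for Vwf from -0.019 to 0.43. The cause of these differences was not tested, except that fewer libraries enter each such fit. Of 35 gene groups 26 kept the sign of their median throughout, but sizes moved: it was 0.27 for endoplasmic reticulum genes and 0.17 for mucin glycosylation without the second GS4M2 library, and -0.050 for ribosomal proteins without the first GWTM2 library. With 2 libraries a group, small changes of variable genes are not detectable.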

Other observations

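Of the 43 genes 42 were also tested in Gli1-tdTomato+ stromal cells of the proximal colon, from other libraries with their own controls (GWTT), where limma called 1472 of 15319 genes (9.61%). Of the 42 genes 10 were called there, each in the direction of the goblet cells, 6 higher (Lama3, Clu, Dhrs9, Marcksl1, Bmp8b and Clca4b) and 4 lower (Insrr, Sult1a1, Ntn4 and Papss2). Bmp8b was at 0 in both GWTT libraries and at 107 and 79.7 in both libraries with Smad4 deleted (GS4T). Clca4b was 0 and 2.05 in GWTT and 1735 and 1664 in GS4T libraries, and Lama3 was 14.5 and 40.0 against 764 and 722. Insrr was 94.1 and 161 in GWTT and 11.1 and 22.9 in GS4T libraries, and Papss2 was 1760 and 1300 against 533 and 622. The epithelial gene Epcam was 52.7 and 1061 in GWTT and 2713 and 3918 in GS4T libraries, and Muc2 was 61.0 and 2672 against 4519 and 11449. Both were thus higher in the GS4T libraries, like the genes called higher there and unlike those called lower. The part of epithelial RNA in these values was not tested. Bhlha15, up-regulated in the goblet cells, was lower in the stromal cells, at 61.0 and 90.2 in GWTT and 12.9 and 31.9 in GS4T libraries. It was not called there (limma adjusted p = 0.092). Gli1 was 23.9 in the second GS4T library, against 642 to 1597 in the others.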
